A study of Mus musculus with 8 samples.

Results

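The genes described here are 39 macrophage and pan-leukocyte genes, chosen by name, of 18193 genes that had a probe set with exactly 1 gene symbol. They were represented by 66 such probe sets on the array, 21 genes by 1 and 18 genes by several, and each gene's value is that of its brightest probe set over the 8 arrays. RNA came from CCE cells, a 129/Sv mouse embryonic stem (ES) cell line. Per the labels, a lentivirus brought in either mouse Bmi1 cDNA or nothing (empty vector), after which infected cells were sorted by eGFP. Embryoid bodies, aggregates in which ES cells differentiate, were grown from them for 10 days. The 8 arrays formed 4 groups of 2: Bmi1-labelled embryoid bodies and vector embryoid bodies, both at day 10, and Bmi1-labelled ES cells and control ES cells, both undifferentiated. The controls were an untreated array and an empty vector array, given in that order. All groups share 1 cell line, and the labels do not say whether replicates were separate cultures. The p-values therefore cover only array-to-array spread, which may be technical.

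Macrophages are phagocytes that arise early in the yolk sac and also form in embryoid bodies. Their growth and survival depend on the receptor Csf1r, and the transcription factor PU.1, encoded by Spi1, switches on many of their genes. Pan-leukocyte genes such as Ptprc mark white blood cells in general and are low or silent in most other tissues. The series asks whether Bmi1, a Polycomb protein that silences developmental genes, favours blood formation from ES cells. In bulk samples such as these, fewer cells of a type and less RNA per cell cannot be told apart.

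Some facts of the arrays bear on all results. Values are deposited RMA values in log2 units. By the distribution of their values the arrays formed 3 sets: embryoid bodies of replicate 1 (set 1), embryoid bodies of replicate 2 (set 2) and all 4 ES cell arrays. Differences between Bmi1-labelled and vector embryoid bodies are given within set 1 and within set 2. What the sets differ in is not labelled. Signal for Bmi1 itself went against the labels, at 7.48 and 8.51 in Bmi1-labelled embryoid bodies, against 9.35 and 9.67 in vector embryoid bodies, and at 5.68 and 6.28 in Bmi1-labelled ES cells, against 7.41 and 7.74 in control ES cells. It is not known here whether these probes lie in the cDNA, so samples are called Bmi1-labelled throughout.

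Promoter sequences are shown because most of these genes moved together across the embryoid body arrays and because PU.1 is known to bind purine-rich sites with the core GAGGAA near the start of many macrophage genes. RefSeq promoters (GRCm38.p6) matched 31 of the 39 genes by symbol. In the 250 bases upstream of the start, the letters GAGGAA, searched on both strands as the single motif, occurred for 19 of these 31 genes (61.3%), beside 25.9% of the 27025 genes with a listed promoter. Shown are the 6 promoters with a match from the genes with the widest range over the arrays and 1 listed promoter, and Fcer1g as the widest of those without a match. These are Ctss at chr3:95526536-95526785 on the plus strand, C1qb at chr4:136886201-136886450 on the minus strand, Plek at chr11:17008719-17008968 on the minus strand, Pf4 at chr5:90772185-90772434 on the plus strand, Cd53 at chr3:106790150-106790399 on the minus strand, Aif1 at chr17:35176053-35176302 on the minus strand, and Fcer1g at chr1:171234350-171234599 on the minus strand. Each is written 5′ to 3′ in the direction of its gene and ends at the base before the start, and capitals mark the match, which reads TTCCTC where it is on the other strand.
Ctss: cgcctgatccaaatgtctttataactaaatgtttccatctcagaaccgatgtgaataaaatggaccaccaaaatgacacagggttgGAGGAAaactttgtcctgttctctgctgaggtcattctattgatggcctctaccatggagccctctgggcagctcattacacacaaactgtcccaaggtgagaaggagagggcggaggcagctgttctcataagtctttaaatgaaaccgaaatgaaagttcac
C1qb: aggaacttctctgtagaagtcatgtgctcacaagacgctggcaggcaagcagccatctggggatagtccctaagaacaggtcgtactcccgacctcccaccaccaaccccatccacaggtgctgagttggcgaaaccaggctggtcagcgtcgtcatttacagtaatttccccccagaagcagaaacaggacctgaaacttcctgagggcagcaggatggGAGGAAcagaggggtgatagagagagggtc
Plek: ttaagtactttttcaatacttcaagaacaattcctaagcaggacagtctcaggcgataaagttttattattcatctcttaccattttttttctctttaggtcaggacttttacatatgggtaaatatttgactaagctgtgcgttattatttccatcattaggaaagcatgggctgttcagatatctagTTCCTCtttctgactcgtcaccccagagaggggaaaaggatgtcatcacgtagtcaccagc
Pf4: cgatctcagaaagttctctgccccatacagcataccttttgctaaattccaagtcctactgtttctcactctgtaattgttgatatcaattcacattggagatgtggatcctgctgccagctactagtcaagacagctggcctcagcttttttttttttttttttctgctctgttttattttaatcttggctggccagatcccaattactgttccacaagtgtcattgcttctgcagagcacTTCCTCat
Cd53: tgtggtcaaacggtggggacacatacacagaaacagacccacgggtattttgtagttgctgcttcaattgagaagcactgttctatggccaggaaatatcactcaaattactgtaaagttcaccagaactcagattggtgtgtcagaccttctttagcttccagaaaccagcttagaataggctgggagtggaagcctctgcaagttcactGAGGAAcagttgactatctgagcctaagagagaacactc
Aif1: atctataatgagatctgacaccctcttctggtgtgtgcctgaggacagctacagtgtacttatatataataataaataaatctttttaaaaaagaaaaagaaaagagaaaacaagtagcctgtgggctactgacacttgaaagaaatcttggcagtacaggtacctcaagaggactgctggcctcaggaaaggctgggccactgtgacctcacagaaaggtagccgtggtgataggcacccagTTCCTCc
Fcer1g: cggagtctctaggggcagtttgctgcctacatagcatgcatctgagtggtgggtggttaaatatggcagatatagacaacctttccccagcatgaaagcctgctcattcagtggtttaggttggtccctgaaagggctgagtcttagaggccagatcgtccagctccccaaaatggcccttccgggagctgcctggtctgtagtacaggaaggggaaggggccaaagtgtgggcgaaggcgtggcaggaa
The match began 164 bases upstream of the start for Ctss, 61 for Plek, 39 for Cd53, 30 for C1qb, 8 for Pf4 and 7 for Aif1. It was on the gene's own strand for Ctss, C1qb and Cd53 and on the other strand for Plek, Pf4 and Aif1. A match describes these letters and is not evidence of binding.

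Across the 39 genes the widest contrast in the embryoid bodies was between the 2 vector arrays. Vector replicate 1 read higher than vector replicate 2 for all 39 genes, with a median difference of 1.68 log2 units, beside 0.06 over all 18193 genes. It was over 1 log2 unit higher for 30 of the 39, beside 3.47% of all genes. The 2 Bmi1-labelled arrays lay closer together, with a median difference of 0.29 between replicates 1 and 2, and replicate 1 was over 1 log2 unit higher for 1 gene, Ms4a7, beside 1.62% of all genes. For 26 of the 39 genes vector replicate 1 was the highest and vector replicate 2 the lowest of the 4 embryoid body arrays, with both Bmi1-labelled arrays between them, beside 13.2% of all genes. Vector replicate 1 was the highest embryoid body array for 34 genes, beside 29.9% of all genes, and vector replicate 2 the lowest for 30, beside 28.7%. Replicates 1 and 2 lie in different array sets, so these differences and orders also cross the sets. For comparison, marker lists of granulocytes, mast cells, and B and T cells had medians of 0.61, 0.63 and 0.595 between vector replicates 1 and 2. Between the Bmi1-labelled replicates these lists had medians of 0.59, 0.69 and 0.51. Many of their genes are dim: 2 of 7, 0 of 5 and 3 of 5 were above the array median in at least 2 arrays. A list of 5 mesenchyme genes had medians of 1.86 between the vector replicates and 0.63 between the Bmi1-labelled ones. A wide contrast between the vector arrays was therefore not particular to the 39 genes. No test was made of these orders or of the part of the sets in them.

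**Figure D1:**
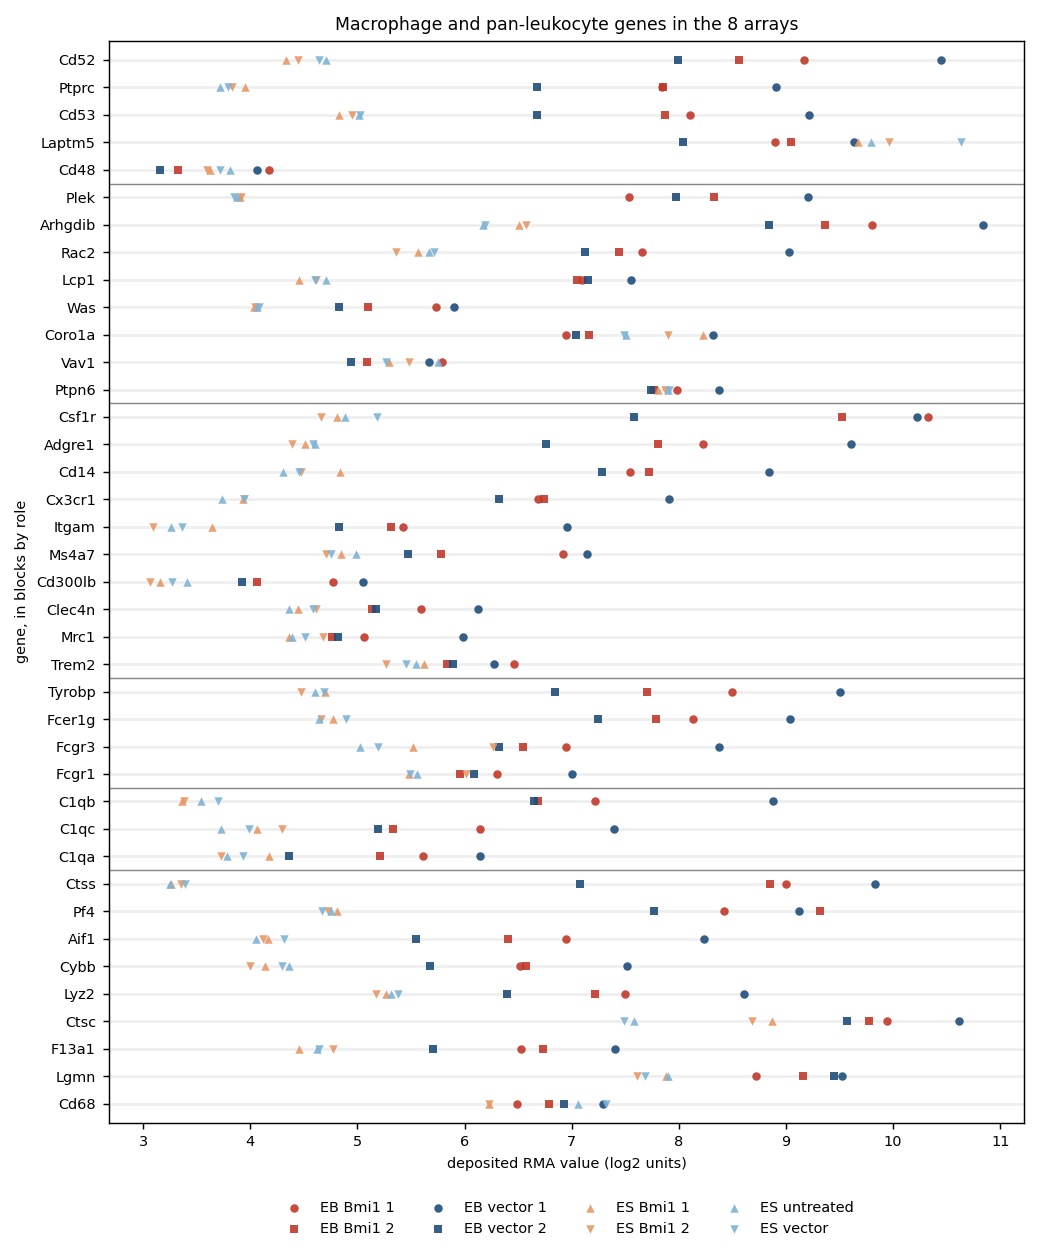
Deposited RMA value (x axis, log2 units) of each of the 39 genes (rows, in blocks by role) in the 8 arrays, with red points for Bmi1-labelled embryoid bodies, dark blue for vector embryoid bodies, orange for Bmi1-labelled ES cells and light blue for control ES cells. Vector replicate 1 (dark blue circle) is the highest embryoid body array for 34 genes and vector replicate 2 (dark blue square) the lowest for 30.

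**Figure D2:**
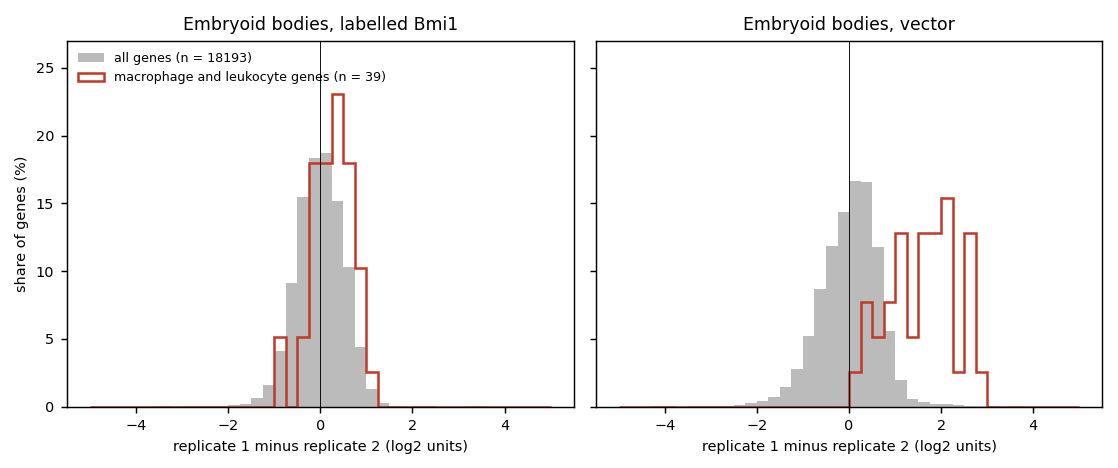
Share of genes (y axis, %) by replicate 1 minus replicate 2 (x axis, log2 units) in Bmi1-labelled embryoid bodies (left) and vector embryoid bodies (right), for all 18193 genes in grey and the 39 genes in red. The 39 genes have a median of 0.29 on the left and of 1.68 on the right, where all of them lie above 0.

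Surface proteins of white blood cells showed this order clearly. Ptprc, the CD45 phosphatase of nucleated blood cells, read 7.84 and 7.85 in Bmi1-labelled embryoid bodies, against 8.91 and 6.68 in vector embryoid bodies, and 3.95 and 3.83 in Bmi1-labelled ES cells, against 3.72 and 3.80 in control ES cells. Cd52, a small glycoprotein of lymphocytes and monocytes, read 9.17 and 8.56 in Bmi1-labelled embryoid bodies, against 10.45 and 7.99 in vector embryoid bodies, and 4.33 and 4.45 in Bmi1-labelled ES cells, against 4.71 and 4.64 in control ES cells. In each case the 2 Bmi1-labelled arrays lay within the range of the vector arrays, and every embryoid body array lay above every ES cell array. Cd53, a tetraspanin of leukocytes, read 8.10 and 7.87 in Bmi1-labelled embryoid bodies, against 9.21 and 6.68 in vector embryoid bodies, and 4.83 and 4.95 in Bmi1-labelled ES cells, against 5.02 and 5.02 in control ES cells. Laptm5, a lysosomal membrane protein of blood cells, differed from the others: it read 8.90 and 9.05 in Bmi1-labelled embryoid bodies, against 9.63 and 8.04 in vector embryoid bodies, and 9.67 and 9.96 in Bmi1-labelled ES cells, against 9.80 and 10.64 in control ES cells, so all embryoid body arrays were below all ES cell arrays. The brightest Laptm5 probe set is of a class that may also read other transcripts. Of its 5 probe sets, 3 had all embryoid body arrays below all ES cell arrays. The 1 probe set outside that class did not, at 6.20 to 7.24 in embryoid bodies and 7.01 to 7.12 in ES cells. Cd48, a receptor of the SLAM family, was dim throughout, at 4.18 and 3.32 in Bmi1-labelled embryoid bodies, against 4.06 and 3.16 in vector embryoid bodies.

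Regulators of the actin skeleton and of signalling were more varied. Plek, a substrate of protein kinase C in platelets and leukocytes, read 7.54 and 8.33 in Bmi1-labelled embryoid bodies, against 9.20 and 7.97 in vector embryoid bodies, and 3.91 and 3.91 in Bmi1-labelled ES cells, against 3.87 and 3.84 in control ES cells. Here Bmi1-labelled replicate 1, not vector replicate 2, was the lowest embryoid body array. Arhgdib, a cytoplasmic regulator in blood cells, read 9.80 and 9.37 in Bmi1-labelled embryoid bodies, against 10.84 and 8.85 in vector embryoid bodies, and 6.51 and 6.58 in Bmi1-labelled ES cells, against 6.17 and 6.19 in control ES cells, with vector replicates again at both ends. Rac2, a signalling GTPase of blood cells, read 7.66 and 7.44 in Bmi1-labelled embryoid bodies, against 9.03 and 7.12 in vector embryoid bodies, and 5.57 and 5.36 in Bmi1-labelled ES cells, against 5.67 and 5.71 in control ES cells. Lcp1, the actin-bundling protein L-plastin, read 7.09 and 7.05 in Bmi1-labelled embryoid bodies, against 7.56 and 7.15 in vector embryoid bodies, and 4.46 and 4.62 in Bmi1-labelled ES cells, against 4.70 and 4.61 in control ES cells, and both Bmi1-labelled arrays were below both vector arrays by its brightest probe set. Was, the Wiskott-Aldrich syndrome protein that drives actin branching, was dimmer, at 5.73 and 5.09 in Bmi1-labelled embryoid bodies, against 5.90 and 4.83 in vector embryoid bodies. Coro1a, an actin-binding coronin, and Ptpn6, the phosphatase SHP-1, overlapped between embryoid bodies and ES cells. Coro1a read 6.95 and 7.16 in Bmi1-labelled embryoid bodies, against 8.32 and 7.04 in vector embryoid bodies, and 8.23 and 7.90 in Bmi1-labelled ES cells, against 7.51 and 7.49 in control ES cells. Ptpn6 read 7.98 and 7.77 in Bmi1-labelled embryoid bodies, against 8.38 and 7.74 in vector embryoid bodies, and 7.81 to 7.91 in the 4 ES cell arrays. Vav1, a signalling protein of blood cells, was dim by its brightest probe set, at 5.79 and 5.09 in Bmi1-labelled embryoid bodies, against 5.67 and 4.94 in vector embryoid bodies.

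Among myeloid receptors, Csf1r, the receptor for the growth factor of macrophages, stood apart from most. It read 10.33 and 9.53 in Bmi1-labelled embryoid bodies, against 10.22 and 7.58 in vector embryoid bodies, and 4.81 and 4.66 in Bmi1-labelled ES cells, against 4.89 and 5.18 in control ES cells. Bmi1-labelled replicate 1 and vector replicate 1 were close together, Bmi1-labelled replicate 2 was lower and vector replicate 2 was the lowest. Adgre1, the surface antigen by which mouse macrophages are most often recognised, read 8.23 and 7.81 in Bmi1-labelled embryoid bodies, against 9.61 and 6.76 in vector embryoid bodies, and 4.51 and 4.39 in Bmi1-labelled ES cells, against 4.60 and 4.58 in control ES cells, with vector replicates at both ends. Cd14, the co-receptor for lipopolysaccharide, read 7.54 and 7.73 in Bmi1-labelled embryoid bodies, against 8.84 and 7.28 in vector embryoid bodies, and 4.84 and 4.48 in Bmi1-labelled ES cells, against 4.31 and 4.46 in control ES cells. Cx3cr1, the fractalkine receptor, read 6.69 and 6.74 in Bmi1-labelled embryoid bodies, against 7.91 and 6.32 in vector embryoid bodies, and 3.93 and 3.94 in Bmi1-labelled ES cells, against 3.73 and 3.94 in control ES cells. For both, vector replicate 1 was the highest embryoid body array and vector replicate 2 the lowest. Itgam, the integrin chain CD11b, was dimmer, at 5.42 and 5.31 in Bmi1-labelled embryoid bodies, against 6.95 and 4.83 in vector embryoid bodies. Mrc1, the mannose receptor, was at 5.06 and 4.77 in Bmi1-labelled embryoid bodies, against 5.98 and 4.82 in vector embryoid bodies. Clec4n, the fungal receptor Dectin-2, was at 5.59 and 5.14 in Bmi1-labelled embryoid bodies, against 6.13 and 5.17 in vector embryoid bodies. In these 3 as well vector replicate 1 was the highest embryoid body array. Ms4a7 read 6.92 and 5.78 in Bmi1-labelled embryoid bodies, against 7.15 and 5.47 in vector embryoid bodies, and 4.85 and 4.70 in Bmi1-labelled ES cells, against 4.99 and 4.76 in control ES cells. Cd300lb, an activating receptor of myeloid cells, read 4.78 and 4.06 in Bmi1-labelled embryoid bodies, against 5.05 and 3.93 in vector embryoid bodies. Trem2, a lipid receptor of macrophages and microglia, had the narrowest range over the 8 arrays among the receptors, at 6.46 and 5.84 in Bmi1-labelled embryoid bodies, against 6.28 and 5.89 in vector embryoid bodies, and 5.62 and 5.27 in Bmi1-labelled ES cells, against 5.55 and 5.46 in control ES cells.

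Tyrobp (DAP12) and Fcer1g are short adaptors that carry the signal of Trem2, Fc receptors and other receptors to the kinase Syk. Tyrobp read 8.50 and 7.70 in Bmi1-labelled embryoid bodies, against 9.51 and 6.84 in vector embryoid bodies, and 4.70 and 4.48 in Bmi1-labelled ES cells, against 4.61 and 4.69 in control ES cells. Fcer1g read 8.13 and 7.79 in Bmi1-labelled embryoid bodies, against 9.04 and 7.25 in vector embryoid bodies, and 4.78 and 4.66 in Bmi1-labelled ES cells, against 4.64 and 4.89 in control ES cells. For both genes the vector replicates were at both ends of the embryoid body arrays and all ES cell arrays were lower. Fcgr3, an Fc receptor for immunoglobulin G that uses Fcer1g, read 6.95 and 6.55 in Bmi1-labelled embryoid bodies, against 8.38 and 6.32 in vector embryoid bodies, and 5.52 and 6.26 in Bmi1-labelled ES cells, against 5.02 and 5.20 in control ES cells. Fcgr1, the high-affinity Fc receptor, read 6.31 and 5.96 in Bmi1-labelled embryoid bodies, against 7.0 and 6.09 in vector embryoid bodies, and 5.48 and 6.01 in Bmi1-labelled ES cells, against 5.56 and 5.49 in control ES cells by its brightest probe set, in which embryoid bodies and ES cells overlapped.

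The C1q genes encode the 3 chains of C1q, a part of the first component of complement. Macrophages make C1q. C1qb read 7.22 and 6.69 in Bmi1-labelled embryoid bodies, against 8.88 and 6.64 in vector embryoid bodies, and 3.37 and 3.38 in Bmi1-labelled ES cells, against 3.54 and 3.70 in control ES cells. C1qc read 6.14 and 5.33 in Bmi1-labelled embryoid bodies, against 7.39 and 5.19 in vector embryoid bodies, and 4.06 and 4.30 in Bmi1-labelled ES cells, against 3.72 and 3.99 in control ES cells. The dimmest, C1qa, read 5.61 and 5.21 in Bmi1-labelled embryoid bodies, against 6.14 and 4.36 in vector embryoid bodies, and 4.18 and 3.73 in Bmi1-labelled ES cells, against 3.78 and 3.94 in control ES cells. Vector replicate 1 was the highest and vector replicate 2 the lowest embryoid body array for all 3 chains.

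Lysosomal, secreted and effector genes held the widest range of all. Ctss, the macrophage protease cathepsin S, read 9.0 and 8.85 in Bmi1-labelled embryoid bodies, against 9.83 and 7.08 in vector embryoid bodies, and 3.26 and 3.36 in Bmi1-labelled ES cells, against 3.25 and 3.39 in control ES cells. Pf4, a chemokine of platelets and of some macrophages, read 8.42 and 9.31 in Bmi1-labelled embryoid bodies, against 9.12 and 7.77 in vector embryoid bodies, and 4.81 and 4.73 in Bmi1-labelled ES cells, against 4.75 and 4.67 in control ES cells, and its highest array was Bmi1-labelled replicate 2. Aif1 (Iba1), a calcium-binding protein of macrophages, read 6.95 and 6.40 in Bmi1-labelled embryoid bodies, against 8.23 and 5.55 in vector embryoid bodies, and 4.17 and 4.12 in Bmi1-labelled ES cells, against 4.05 and 4.32 in control ES cells. Cybb, the catalytic chain of the phagocyte oxidase, read 6.52 and 6.57 in Bmi1-labelled embryoid bodies, against 7.52 and 5.67 in vector embryoid bodies, and 4.14 and 4.0 in Bmi1-labelled ES cells, against 4.37 and 4.30 in control ES cells. For Ctss, Aif1 and Cybb vector replicate 1 was highest and vector replicate 2 lowest of the embryoid body arrays. Lyz2, the lysozyme of myeloid cells, read 7.50 and 7.21 in Bmi1-labelled embryoid bodies, against 8.61 and 6.39 in vector embryoid bodies, and 5.26 and 5.18 in Bmi1-labelled ES cells, against 5.32 and 5.38 in control ES cells. F13a1, a chain of clotting factor XIII, read 6.52 and 6.74 in Bmi1-labelled embryoid bodies, against 7.41 and 5.70 in vector embryoid bodies, and 4.45 and 4.77 in Bmi1-labelled ES cells, against 4.63 and 4.64 in control ES cells. The lysosomal genes Ctsc, Lgmn and Cd68 are used by many cell types. Lgmn, and Ctsc by its brightest probe set, were bright in ES cells as well. Cd68 read lower than these 2 genes in ES cells, where its values overlapped its own in embryoid bodies. The 2 dimmer Ctsc probe sets read 2.70 to 3.24 and 3.43 to 3.67 in ES cells. Ctsc, the protease cathepsin C, read 9.95 and 9.77 in Bmi1-labelled embryoid bodies, against 10.62 and 9.57 in vector embryoid bodies, and 8.87 and 8.68 in Bmi1-labelled ES cells, against 7.58 and 7.49 in control ES cells. Lgmn, the protease legumain, read 8.72 and 9.16 in Bmi1-labelled embryoid bodies, against 9.53 and 9.45 in vector embryoid bodies, and 7.88 and 7.61 in Bmi1-labelled ES cells, against 7.90 and 7.69 in control ES cells. Cd68, a lysosomal glycoprotein, read 6.49 and 6.78 in Bmi1-labelled embryoid bodies, against 7.29 and 6.93 in vector embryoid bodies, and 6.23 to 7.32 in the 4 ES cell arrays. Both Bmi1-labelled arrays were below both vector arrays for Lgmn and Cd68.

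The comparison of Bmi1-labelled embryoid bodies with vector embryoid bodies bears on the question of the series, and it gave opposite signs in the 2 sets. Of the 39 genes, 35 were lower in the Bmi1-labelled array in set 1, beside 9971 of all 18193 genes. In set 2, 32 were higher, beside 8705 of all genes. The medians were -0.91 in set 1 and 0.36 in set 2, beside -0.04 and -0.01 over all genes. Lower in set 1 and higher in set 2 were 29 of the 39, beside 21.8% of all genes, and 15 of these were over 0.5 log2 units in both, beside 0.594% of all genes. The 15 were Ptprc, Cd53, Laptm5, Tyrobp, Fcer1g, Adgre1, C1qa, Ctss, Lyz2, F13a1, Arhgdib, Cd52, Cybb, Aif1 and Pf4. None of the 39 was over 0.5 log2 units in the same direction in both sets, beside 3.52% of all genes. Over single probe sets, 45 of 66 were lower in set 1 and higher in set 2.

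**Figure D3:**
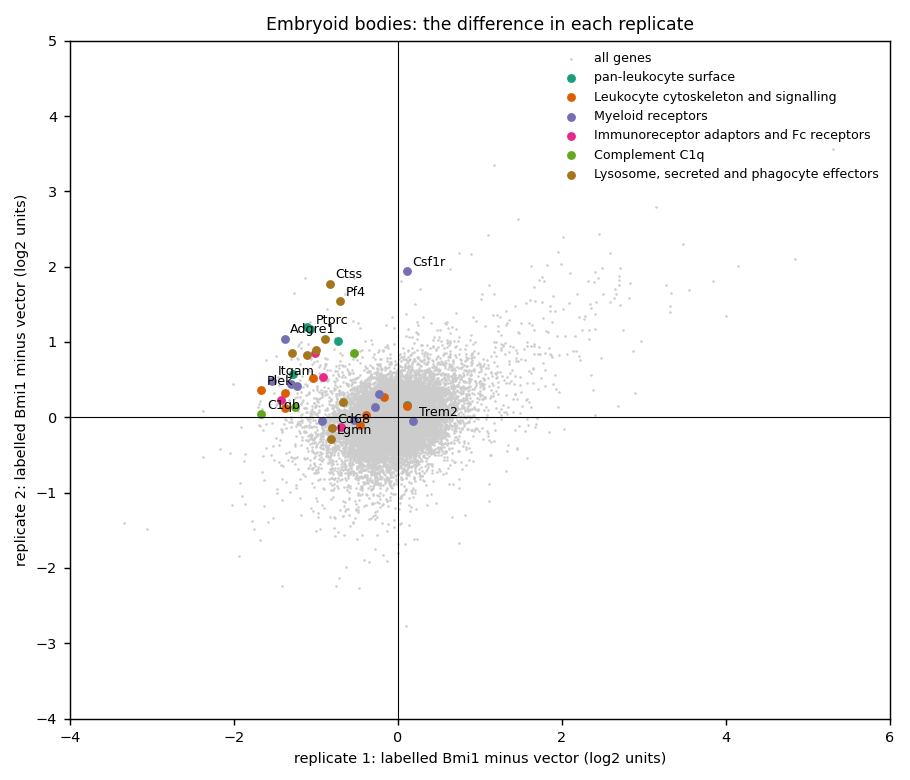
Labelled Bmi1 minus vector in embryoid bodies (log2 units) in replicate 1 (x axis) and replicate 2 (y axis), for all genes in grey and the 39 genes coloured by role. Of the 39 genes, 29 lie in the upper left, lower in replicate 1 and higher in replicate 2, and Csf1r lies apart at 0.11 and 1.94.

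The size of the difference varied by role. Its median was -1.07 in set 1 and 1.01 in set 2 for surface proteins, -0.75 in set 1 and 0.21 in set 2 for cytoskeleton and signalling, -0.73 in set 1 and 0.36 in set 2 for myeloid receptors, -0.96 in set 1 and 0.38 in set 2 for adaptors and Fc receptors, -1.25 in set 1 and 0.14 in set 2 for C1q and -0.83 in set 1 and 0.86 in set 2 for lysosomal and effector genes. These are descriptions of 3 to 10 genes each and were not tested against each other. Single genes ran from -1.67 (Plek) to 0.19 (Trem2) in set 1 and from -0.29 (Lgmn) to 1.94 (Csf1r) in set 2. Lower in both sets were 6 genes, Cd68, Mrc1, Fcgr1, Lgmn, Lcp1 and Clec4n, beside 32.9% of all genes. Higher in both were 3, Csf1r, Vav1 and Cd48, beside 26%, and Trem2 alone was higher in set 1 and lower in set 2, beside 18.8%. Csf1r was at 0.11 in set 1 and 1.94 in set 2, and its 2 dimmer probe sets were at -0.14 in set 1 and 0.71 in set 2 and at 0.03 in set 1 and 0.30 in set 2.

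In the joint fit of all 8 arrays by limma, 31 of the 39 genes passed the filter on dim genes, and C1qa, Vav1, Was, Clec4n, Cd300lb, Itgam, Mrc1 and Cd48 did not. Of the 31, 0 passed Benjamini-Hochberg adjustment for labelled Bmi1 minus vector in embryoid bodies, beside 0.139% of the 12982 genes tested, and 1, Lgmn, was at an unadjusted p under 0.05. Lgmn differed by -0.55 ± 0.21 (SE, n = 2 and 2 arrays, limma adjusted p = 0.62). Csf1r differed by 1.03 ± 0.75 (adjusted p = 0.89), and Ctss by 0.47 ± 0.74 (adjusted p = 1). With the set as a block 0 of the 31 passed too, beside 2.09% of genes tested. Both Bmi1-labelled arrays were above both vector arrays for 0 of the 39, beside 9.36% of all genes, and below for 3, Cd68, Lgmn and Lcp1, beside 12.3%. The direction depended on the vector arrays. Without vector replicate 2, 10 genes were called lower (Adgre1, Aif1, C1qb, Cd52, Cd53, Coro1a, Cx3cr1, Lyz2, Ptprc and Rac2), beside 0.57% of genes tested, and without vector replicate 1, Ctss was called higher, beside 0.077%. The median over the 39 genes was -0.19 with both, -0.97 without vector replicate 2 and 0.54 without vector replicate 1. In such fits the lone vector array is assumed to vary like the other groups and stands against Bmi1-labelled arrays of both sets. The calls restate which vector array was high or low.

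The difference of the differences, set 1 minus set 2, had a median of -1.64 over the 39 genes and was -2.42 for Adgre1. Each of its 4 terms is 1 array, so it has no replicate check in embryoid bodies. A limma fit could take its spread from ES cell arrays alone (2 residual degrees of freedom), where most of these genes are dim. In that fit 0 of 31 passed adjustment, beside 0% of genes tested, and its p-values support neither a difference nor its absence.

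Most of these genes were dim in undifferentiated ES cells, whether Bmi1-labelled or control. Both Bmi1-labelled arrays were above both control arrays for 8 of the 39 genes, beside 22.6% of all genes, and below for 13, beside 19.4%. Labelled Bmi1 minus control had a median of -0.05 over the 39 genes, beside 0.0011 over all genes. By limma 0 of 31 passed, beside 0.0462% of genes tested, and Ctsc and Cd68 were at an unadjusted p under 0.05. Ctsc differed by 1.24 ± 0.32 (SE, n = 2 and 2 arrays, adjusted p = 0.36), with both Bmi1-labelled arrays above both control arrays. With the set of the embryoid bodies as a block its adjusted p was 0.046, and Ctsc was the 1 gene of the 31 that passed, beside 1.66% of genes tested. Its 2 dimmer probe sets were at -0.03 and -0.22. Cd68 differed by -0.96 ± 0.20 (adjusted p = 0.22), and from ES cell arrays alone both passed, Ctsc higher and Cd68 lower, beside 1.07% of genes tested. For the difference between the stages in the effect of the label, 0 of 31 passed by limma, beside 0% of genes tested. There Ctsc was the 1 gene at an unadjusted p under 0.05. With the block 0 of 31 passed again, beside 0.824%.

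Embryoid bodies were also set against ES cells, to show which of the genes came up during differentiation. All 4 embryoid body arrays were above all 4 ES cell arrays for 32 of the 39 genes, beside 26.8% of all genes. They were all below for 1, Laptm5, beside 33.5%, and the others overlapped (Coro1a, Cd68, Fcgr1, Vav1, Ptpn6 and Cd48). The median difference was 2.02 log2 units in Bmi1-labelled samples and 2.39 in vector embryoid bodies against control ES cells, beside -0.06 and -0.04 over all genes. A gene that is high in embryoid bodies alone can pass the filter through them, so the next counts are descriptions. Of the 31 genes tested, limma called 23 higher in Bmi1-labelled samples, beside 21.2% of genes tested, and 0 lower, beside 38%. In vector and control samples it called 25 higher, beside 22.7%, and 1 lower, Laptm5, beside 35.8%. With the set as a block it called 25 higher, beside 27.8%, and 1 lower, Coro1a, beside 46.6%, in Bmi1-labelled samples. In vector and control samples the block gave 27 higher, beside 29.5%, and 1 lower, Laptm5, beside 45.3%. Stage and array set cannot be told apart.

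Among the 31 genes the largest difference between stages was that of Ctss, at 5.62 ± 0.74 log2 units in Bmi1-labelled samples and 5.13 ± 0.74 in vector and control samples (SE of the limma fit, n = 2 and 2 arrays each). Csf1r was at 5.19 ± 0.75 in Bmi1-labelled samples and 3.87 ± 0.75 in vector and control samples. Plek was at 4.02 ± 0.41 and 4.73 ± 0.41, Cd52 at 4.47 ± 0.68 and 4.54 ± 0.68, and Ptprc at 3.96 ± 0.61 and 4.04 ± 0.61, in the same order. In that order of samples, C1qb was at 3.58 ± 0.63 and 4.15 ± 0.63, Tyrobp at 3.51 ± 0.75 and 3.53 ± 0.75, and Pf4 at 4.10 ± 0.45 and 3.74 ± 0.45. At the other end was Laptm5, which was bright at both stages by its brightest probe set. By that probe set it was at -0.84 ± 0.51 in Bmi1-labelled samples (limma adjusted p = 0.19) and -1.38 ± 0.51 in vector and control samples (adjusted p = 0.049).

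**Figure D4:**
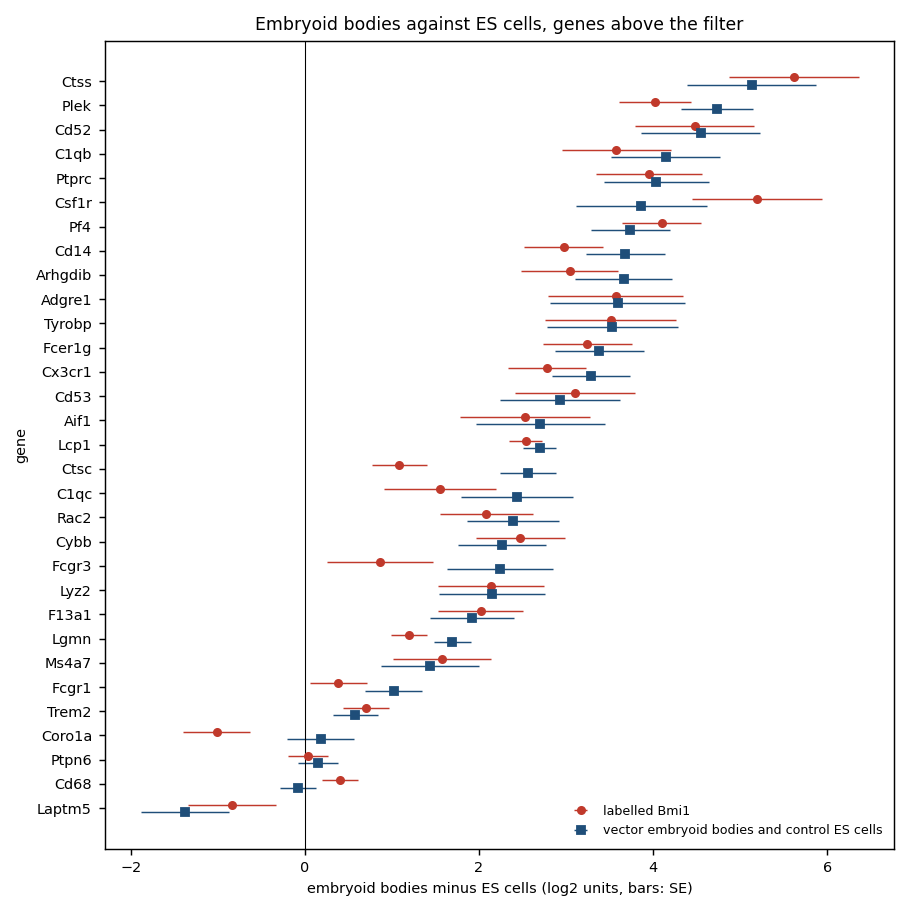
Embryoid bodies minus ES cells (x axis, log2 units, bars are SE of the limma fit, n = 2 and 2 arrays) for the 31 genes above the filter (rows), in red for Bmi1-labelled samples and in blue for vector embryoid bodies and control ES cells. Ctss is at 5.62 and 5.13, and Laptm5 lies below 0 in both, at -0.84 and -1.38.

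Other genes of macrophages and leukocytes were described from lists. In each of them 0 were called for labelled Bmi1 minus vector in embryoid bodies by the joint fit, beside 0.139% of genes tested. Of leukocyte signalling genes outside the 39, 14 were measured. Lower in set 1 and higher in set 2 were 12 of them, beside 21.8% of all genes. Their medians were -0.74 in set 1 and 0.30 in set 2. Fermt3, an activator of integrins in blood cells, read 8.84 and 9.27 in Bmi1-labelled embryoid bodies, against 9.98 and 8.07 in vector embryoid bodies, and Itgb2, the partner chain of Itgam, read 6.34 and 6.04 in Bmi1-labelled embryoid bodies, against 7.12 and 5.14 in vector embryoid bodies. Nckap1l, a subunit of the actin-regulating WAVE complex in blood cells, read 7.26 and 6.53 in Bmi1-labelled embryoid bodies, against 8.14 and 6.23 in vector embryoid bodies. In these 3 the vector replicates were again the highest and the lowest array. Plcg2, a phospholipase downstream of Syk, was higher in both sets, at 9.67 and 9.56 in Bmi1-labelled embryoid bodies, against 9.04 and 8.57 in vector embryoid bodies. Plcg2 passed by limma with the set as a block (adjusted p = 0.037), a fit that called 2.09% of all genes tested. It was the 1 of these lists' genes that passed there, and it was named after its values were seen.

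Of the phagocyte oxidase subunits Ncf1, Ncf4 and Cyba, Ncf4 read 6.95 and 6.75 in Bmi1-labelled embryoid bodies, against 8.15 and 6.05 in vector embryoid bodies, and Ncf1 read 6.93 and 6.48 in Bmi1-labelled embryoid bodies, against 7.81 and 6.14 in vector embryoid bodies, with vector replicate 1 highest and vector replicate 2 lowest for both. Cyba, which many cells express, read 9.45 and 9.16 in Bmi1-labelled embryoid bodies, against 9.78 and 9.77 in vector embryoid bodies. Among 17 other macrophage genes, 16 were lower in set 1, beside 9971 of all 18193 genes. In set 2, 9 of the 17 were higher, beside 8705 of all genes, which is a similar share. Their medians were -0.65 in set 1 and 0.00 in set 2. Mpeg1, the pore-forming protein perforin-2, read 8.40 and 8.15 in Bmi1-labelled embryoid bodies, against 9.05 and 6.51 in vector embryoid bodies. Il1b, the inflammatory cytokine, read 7.70 and 7.78 in Bmi1-labelled embryoid bodies, against 9.31 and 7.02 in vector embryoid bodies, and Ccl3, a chemokine, read 8.06 and 7.56 in Bmi1-labelled embryoid bodies, against 9.57 and 7.24 in vector embryoid bodies. Vector replicate 1 was the highest array for all 3.

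Transcription factors and growth factors of macrophages were mixed. The 9 factors measured had medians of -0.28 in set 1 and 0.07 in set 2. Spi1 read 6.35 and 6.59 in Bmi1-labelled embryoid bodies, against 7.15 and 6.46 in vector embryoid bodies, and Ikzf1, a lymphoid and myeloid factor, read 6.76 and 6.83 in Bmi1-labelled embryoid bodies, against 7.76 and 6.32 in vector embryoid bodies, both with vector replicate 1 highest. Maf read 10.0 and 10.11 in Bmi1-labelled embryoid bodies, against 11.11 and 10.03 in vector embryoid bodies, and Tfec, a factor of the macrophage lineage, read 5.59 and 4.75 in Bmi1-labelled embryoid bodies, against 5.87 and 6.50 in vector embryoid bodies. Csf1, a ligand of Csf1r that stromal cells make, varied little, at 8.40 and 8.43 in Bmi1-labelled embryoid bodies, against 8.55 and 8.12 in vector embryoid bodies, and Csf2rb, a receptor chain shared by several myeloid cytokines, read 6.13 and 6.60 in Bmi1-labelled embryoid bodies, against 7.57 and 6.18 in vector embryoid bodies. Of the 9 growth factors and receptors, 8 were lower in set 1 and 6 lower in set 2, beside 9971 and 9422 of all 18193 genes.

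Markers of other cell types show what else differed between the same arrays, as mean levels over each list. All 5 mesenchyme genes, collagens and matrix proteins of connective tissue, had vector replicate 1 highest and vector replicate 2 lowest, beside 13.2% of all genes. Their mean was 11.86 and 11.38 in Bmi1-labelled embryoid bodies, against 12.39 and 10.68 in vector embryoid bodies. The 5 pluripotency genes ran the opposite way in the vector arrays, with replicate 1 below replicate 2 for all 5, at a mean of 8.38 and 9.83 in Bmi1-labelled embryoid bodies, against 8.14 and 10.46 in vector embryoid bodies. Vector replicate 2 was thus the embryoid body array with the most pluripotency signal and the least signal of mesenchyme and of the 39 genes. The part of either list in the results on the 39 genes was not tested.

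Most endothelial genes and all listed red cell genes were lower in both sets. The 6 endothelial genes had medians of -0.96 in set 1 and -0.86 in set 2, and 5 of 6 were lower in both sets, beside 32.9% of all genes. Their mean was 7.10 and 7.47 in Bmi1-labelled embryoid bodies, against 8.13 and 8.15 in vector embryoid bodies. In the joint fit 0 of the 6 and 0 of the 4 red cell genes were called, and with the set as a block 3 of the 6 and 2 of the 4 were called lower, beside 0.739% of genes tested. The 4 genes of primitive red cells were all lower in both sets, with medians of -1.54 in set 1 and -1.26 in set 2 and a mean of 7.82 and 8.38 in Bmi1-labelled embryoid bodies, against 9.29 and 9.67 in vector embryoid bodies. Megakaryocyte genes had a mean of 6.58 and 7.13 in Bmi1-labelled embryoid bodies, against 6.90 and 6.57 in vector embryoid bodies. Ppbp, a platelet chemokine that was singled out after its values were seen, was the 1 gene of these 4 with Bmi1-labelled replicate 2 highest, as Pf4 had. It read 6.05 and 8.05 in Bmi1-labelled embryoid bodies, against 6.59 and 6.20 in vector embryoid bodies. Of the granulocyte genes 2 of 7 passed the filter on dim genes, of the mast cell genes 0 of 5, and of the B and T cell genes 3 of 5. The granulocyte mean was 5.59 and 5.0 in Bmi1-labelled embryoid bodies, against 5.51 and 4.90 in vector embryoid bodies, where each replicate 1 array was above each replicate 2 array. Their part in the results was not tested.

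**Figure D5:**
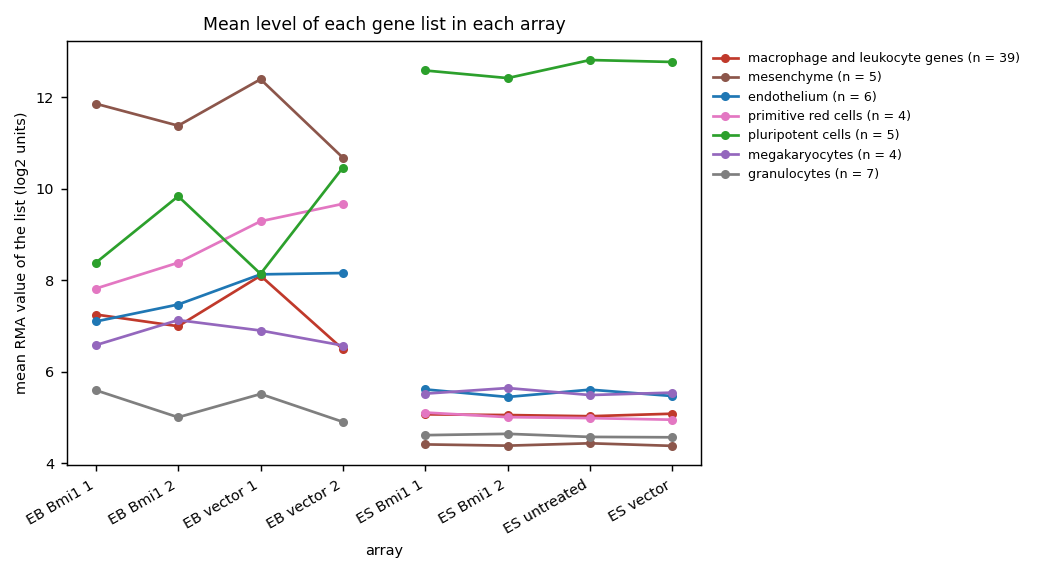
Mean RMA value (y axis, log2 units) of the 39 genes and of 6 marker lists in each array (x axis), with lines that join arrays of a stage to guide the eye. In the vector embryoid bodies the 39 genes and mesenchyme are high in replicate 1 and low in replicate 2, pluripotency genes are the reverse, and endothelium and red cells are higher than in both Bmi1-labelled arrays.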

How the data were processed

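The deposited values are log2 expression per probe set from Affymetrix arrays, made by the authors with RMA, per the submitters' processing notes, with no version named. Columns formed 3 distributions, with a mean absolute difference between sorted values of 0.00994 to 0.0325 within sets and 0.189 to 0.442 across sets, so not all arrays look normalized in 1 run. Array controls (64) were set aside, and 45037 probe sets remained, 34945 of them with 1 symbol in the platform annotation. A gene was tested if above the array median in at least 2 arrays (12982 of 18193 genes). limma 3.58.1 in R 4.3.3 (lmFit, eBayes) was fitted to 8 arrays in 4 groups, with 4 residual degrees of freedom, two-sided, Benjamini-Hochberg over all genes tested, threshold 0.05. An SE is that of this fit.

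Replicate numbers were checked for pairing: deviations from group means correlated at r = 0.721 between embryoid body arrays of the same number, and 0.027 and 0.038 where the Bmi1-labelled ES cell array of that number was 1 of the pair, so the number was used as a block for embryoid bodies, where it follows the array sets (3 residual degrees of freedom). The fits were tested on simulated data. The genes and lists were chosen with earlier results of these data known. Values in every array were given for the 4 genes of each role with the widest range and for genes that passed in a fit, and 3 genes of each list could be named by the same measure; Spi1, Plcg2 and Ppbp were named after their values were seen. Alternatives covered filters, probe sets, normalization, prior, block and leaving out arrays. A few listed genes had no one-symbol probe set and were not analysed here.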

Additional observations from a re-analysis of the deposited data

How the results depend on the processing

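For labelled Bmi1 minus vector in embryoid bodies, 0 of the 39 genes were called under each alternative that kept all arrays, including the replicate block over the embryoid body sets and over the 6 numbered arrays. Leaving out 1 array gave medians of -0.97 to 0.54. Without vector replicate 2 Csf1r turned to -0.29 and Ctss to -0.90, and without vector replicate 1 they were 2.34 and 1.85. For ES cells 1 gene was called with the replicate block, beside 1.66% of genes tested, and 2 from ES cell arrays alone, beside 1.07%. The median for ES cells was -0.027 with the mean of probe sets, -0.015 against the untreated array alone and -0.062 to -0.015 without 1 array. For the stage difference in the effect of the label, leaving out 1 array gave medians of -1.09 to 0.65. For embryoid bodies minus ES cells, the filter at the 75th percentile gave 14 calls in Bmi1-labelled samples and 15 in vector and control samples. It tests fewer genes, so these counts cannot be compared with those of the main fit. The medians in Bmi1-labelled samples were 1.45 over single probe sets, 1.55 with the mean of probe sets, 1.73 after quantile normalization, 1.67 after median centring and 1.98 to 2.18 without 1 array, and in vector and control samples 1.36 to 3.26 without 1 array. Median centring moved the median of all genes for this comparison to -0.41 in Bmi1-labelled samples and -0.36 in vector and control samples, and the higher share of all calls was 35.8% and 38.8% as deposited, 22.8% and 26.6% after centring, and 47.3% and 48.7% after quantile normalization. Set 1 minus set 2 had medians of -1.37 over single probe sets, -1.38 with the mean of probe sets and -1.89 after quantile normalization, which called 10 genes, from single arrays with the spread of ES cells, so these calls support nothing. Over all genes, calls for Bmi1-labelled minus vector numbered 18 in the main analysis and 0 to 271 in the others, for ES cells 6 and 0 to 216, for the stage difference in the effect 0 and 0 to 107, and for set 1 minus set 2 0 and 0 to 54. Single probe sets gave 12774 and 12653 calls for the stages, against 7688 and 7593 genes. The cause of these changes was not tested. No depth is defined for arrays: their small number and dim probe sets limit the precision.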

Other observations

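Probe sets of a gene did not always give the same order of arrays. For 5 of the 39 genes (Coro1a, Csf1r, Fcgr1, Lcp1 and Vav1) another probe set had vector replicate 1 highest and vector replicate 2 lowest of the embryoid body arrays, and the one used above did not. For Fcgr1 it read 7.16 and 7.18 in Bmi1-labelled embryoid bodies, against 8.59 and 6.17 in vector embryoid bodies, with 3.44 to 3.59 in ES cells, and differed by -1.43 in set 1 and 1.01 in set 2. For Lcp1 it read 8.01 and 8.33 in Bmi1-labelled embryoid bodies, against 8.94 and 7.82 in vector embryoid bodies, with 3.20 to 3.33 in ES cells. For Coro1a it read 7.36 and 6.89 in Bmi1-labelled embryoid bodies, against 8.44 and 6.76 in vector embryoid bodies, for Vav1 4.74 and 4.88 in Bmi1-labelled embryoid bodies, against 6.03 and 4.67 in vector embryoid bodies, and for Csf1r 7.80 and 7.53 in Bmi1-labelled embryoid bodies, against 7.93 and 6.83 in vector embryoid bodies. The reverse also occurred. For Ptprc, Cd53, Laptm5, Ctsc, Ms4a7 and Ptpn6 the probe set used above had this order and at least 1 dimmer probe set did not. For Ptprc the dimmer one read 4.83 and 3.32 in Bmi1-labelled embryoid bodies, against 4.20 and 3.54 in vector embryoid bodies. Over single probe sets, 39 of 66 had this order. The genes of this paragraph were singled out after their values were seen.

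The 3 probe sets of Plek were close, with differences of -1.67 in set 1 and 0.36 in set 2, of -1.35 in set 1 and 0.31 in set 2 and of -1.82 in set 1 and 0.27 in set 2. The 3 of C1qb were at -1.66 in set 1 and 0.04 in set 2, at -1.27 in set 1 and 1.26 in set 2 and at -1.43 in set 1 and 0.52 in set 2, so set 2 ran from near 0 to above 1 log2 unit for 1 gene.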
